A study of Mus musculus with 8 samples.

Results

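The genes described here are 10 genes of the major histocompatibility complex (MHC) pathways for antigen presentation, found by their exact gene symbols among the 47643 genes of an expression table of mouse quadriceps. They are the class II chain genes H2-Aa, H2-Ab1 and H2-Eb1, the class II accessory genes H2-DMa, H2-DMb1 and Cd74, the class II transactivator gene Ciita, and the class I genes H2-K1, H2-D1 and B2m. RNA sequencing of bulk quadriceps gave 8 libraries, 1 for each mouse, 4 labelled Nup210-/- and 4 labelled Nup210+/+. Nup210 is a transmembrane protein of the nuclear pore complex, and the study sequenced muscle RNA to learn whether the function of Mef2C, a transcription factor of muscle, is altered when Nup210 is missing. The mice are C57BL/6 in the labels, and the methods give a backcross to C57BL/6J. In the Nup210-/- line, exon 2 of the gene is lost in every tissue after recombination by Hprt-Cre, so the immune cells within the muscle carry the deletion as well as the muscle fibers. No treatment is given for either genotype, and the age and sex of these mice are not given in the sources used here. The number of reads behind a value is unknown, so precision rests on the spread between the 4 libraries of a genotype. The values are TPM, the transcripts of a gene among 1000000 transcripts of its library, which take transcript length into account and can therefore be compared between genes.

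Nup210 itself did not separate the labels by its RNA. Its level was 9.54, 10.8, 11.9 and 8.81 TPM in the libraries labelled Nup210-/- and 5.71, 10.1, 9.19 and 6.71 TPM in those labelled Nup210+/+, with a log2 fold change of 0.44 over Nup210+/+ and a limma adjusted p of 0.231. A value for the whole gene includes the exons that are not deleted, so it cannot check the loss of exon 2, and the directions given for the MHC genes rest on the labels.

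MHC class I molecules consist of a heavy chain, here encoded by H2-K1 or H2-D1, and the light chain beta-2 microglobulin, encoded by B2m. They are found on nearly all nucleated cells and show peptides of proteins from inside the cell to CD8 T cells. MHC class II molecules consist of an alpha and a beta chain and show peptides of proteins taken up from outside to CD4 T cells. They are made mainly by dendritic cells, macrophages and B cells. Resting muscle fibers are known for little class I and no class II, whereas macrophages and dendritic cells of the connective tissue between fibers carry both. Class II transcription needs the transactivator CIITA, which acts through factors bound to the X and Y boxes of the class II promoters.

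Promoter sequences from RefSeq on GRCm38.p6 were found for 7 of the 10 genes. H2-Ab1, Ciita and Cd74 had no entry. The stretches printed here show what the promoters of these genes share, and they and the motif letters were chosen after the sequences had been read. The sequences run 5′ to 3′ on the strand of the gene. In the class II lines, capitals mark the longest stretch that the 250 bases before the starts of H2-Eb1 and H2-DMb1 have in common with at most 1 differing base (CTAGNAACTGATGATGCT, which holds the X box), and the Y box (CCAAT, or ATTGG on the other strand).
H2-Eb1, chr17:34305762-34305836, plus strand: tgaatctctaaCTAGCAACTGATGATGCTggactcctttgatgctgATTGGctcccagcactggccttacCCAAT
H2-DMb1, chr17:34153091-34153120, plus strand: tacCTAGTAACTGATGATGCTaggctgatt
H2-Aa, chr17:34287854-34287928, minus strand: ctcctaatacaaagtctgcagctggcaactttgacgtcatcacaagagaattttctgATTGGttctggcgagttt
In the class I lines, capitals mark a motif bound by interferon regulatory factors (AANNGAAA, or TTTCNNTT on the other strand) and, for B2m, the Y box.
H2-K1, chr17:34000430-34000459, minus strand: tggggattccccatctccacagTTTCACTT
H2-D1, chr17:35262922-35262951, plus strand: tggggattccccatctcctcagTTTCACTT
B2m, chr2:122147542-122147641, plus strand: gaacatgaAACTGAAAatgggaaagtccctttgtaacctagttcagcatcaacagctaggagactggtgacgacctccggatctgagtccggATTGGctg

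Both strands of the 250 bases before the start were searched in 27025 genes. The stretch of 18 bases was taken from H2-Eb1 and H2-DMb1, so its presence in both was given in advance. It was found in these 2 genes alone, or 0.0074% of all, and thus not in H2-Aa or H2-DMa. It began 94 and 97 bases before the starts of H2-Eb1 and H2-DMb1. The Y box was found in all 7 MHC genes with an entry and in 37.5% of all genes. These letters lay 59 and 35 bases before the start of H2-Eb1, 61 before that of H2-DMb1 and 48 before that of H2-Aa. They lay 198 bases before the start of H2-DMa, 53 before that of B2m, and 76 and 53 before that of H2-D1. For H2-K1 they lay 16 bases before the start, or 30 and 6 bases before another listed start. The interferon regulatory factor motif was found in B2m, H2-K1, H2-D1, H2-DMa and H2-Aa and in 23.9% of all genes. The promoters of H2-K1 and H2-D1 had a stretch of 88 bases in common with 1 differing base, of which 30 bases are printed, 29 of them identical. With up to 3 differing bases, the H2-K1 stretch of 30 bases was found in 5 genes, H2-K1, H2-D1 and the nonclassical class I genes H2-Q4, H2-Q6 and H2-Q10, or 0.0185% of all. The stretches of H2-DMb1 and H2-D1 lie before the RefSeq start but inside an exon of the GENCODE annotation, and the others overlap no exon. A match describes letters, and binding was not measured in these data.

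H2-Aa encodes the alpha chain and H2-Ab1 the beta chain of I-A, the class II molecule of C57BL/6 mice, and H2-Eb1 encodes the beta chain of I-E. All 3 were lower in estimate in Nup210-/- quadriceps than in Nup210+/+ quadriceps, by 1.35- to 1.48-fold, and none passed an adjusted p of 0.05. In bulk tissue, fewer cells of a type and less RNA per cell cannot be told apart.

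H2-Ab1 (chromosome 17, 34257689 to 34269419, plus strand, GRCm38) had 38.1, 36.7, 38.4 and 42.2 TPM in Nup210-/- replicates 1 to 4 and 63.1, 60.7, 89.5 and 42.6 TPM in Nup210+/+ replicates 1 to 4. The genotypes did not overlap in TPM, but Nup210+/+ replicate 4 lay only just above the highest Nup210-/- library. The means were 38.8 ± 2.33 and 64.0 ± 19.3 TPM (SD, n = 4 each). Fold changes were estimated with limma on log2(scaled TPM + 1), where each library was first scaled by the median of its ratios to the geometric mean of all libraries. On this scale H2-Ab1 differed by -0.57 (SE 0.15, 95% interval -0.91 to -0.22), with an unadjusted p of 0.00465 and a limma adjusted p of 0.172. After scaling the genotypes overlapped, and the two-sided exact permutation test over the 70 ways of dividing the libraries gave p = 0.0571, against 0.0286 on TPM as deposited. The smallest p this design allows is 0.0286.

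H2-Eb1 (chromosome 17, 34305867 to 34316674, plus strand) had 38.3, 42.1, 37.2 and 39.3 TPM in the Nup210-/- libraries and 57.0, 61.1, 90.4 and 41.6 TPM in the Nup210+/+ libraries. The Nup210-/- libraries were close together, and Nup210+/+ replicate 4 lay among them. The limma estimate was -0.51 (SE 0.16, 95% interval -0.87 to -0.16), with an unadjusted p of 0.00938 and an adjusted p of 0.203. After scaling, the genotypes did not overlap (exact permutation p = 0.0286).

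H2-Aa (chromosome 17, 34282744 to 34287823, minus strand) had 54.8, 56.6, 57.5 and 76.0 TPM in the Nup210-/- libraries and 89.1, 93.4, 129.1 and 56.1 TPM in the Nup210+/+ libraries. In TPM, Nup210-/- replicate 4 stood above its group, and Nup210+/+ replicate 4 lay below 3 of the 4 Nup210-/- libraries. After scaling, Nup210+/+ replicate 4 lay above 3 of the 4, at 58.8 against 57.3 to 57.9, and below Nup210-/- replicate 4 at 81.2. The estimate was -0.44 (SE 0.19, 95% interval -0.88 to 0.00), with a limma adjusted p of 0.353 and an exact permutation p of 0.0571 after scaling.

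**Figure D1:**
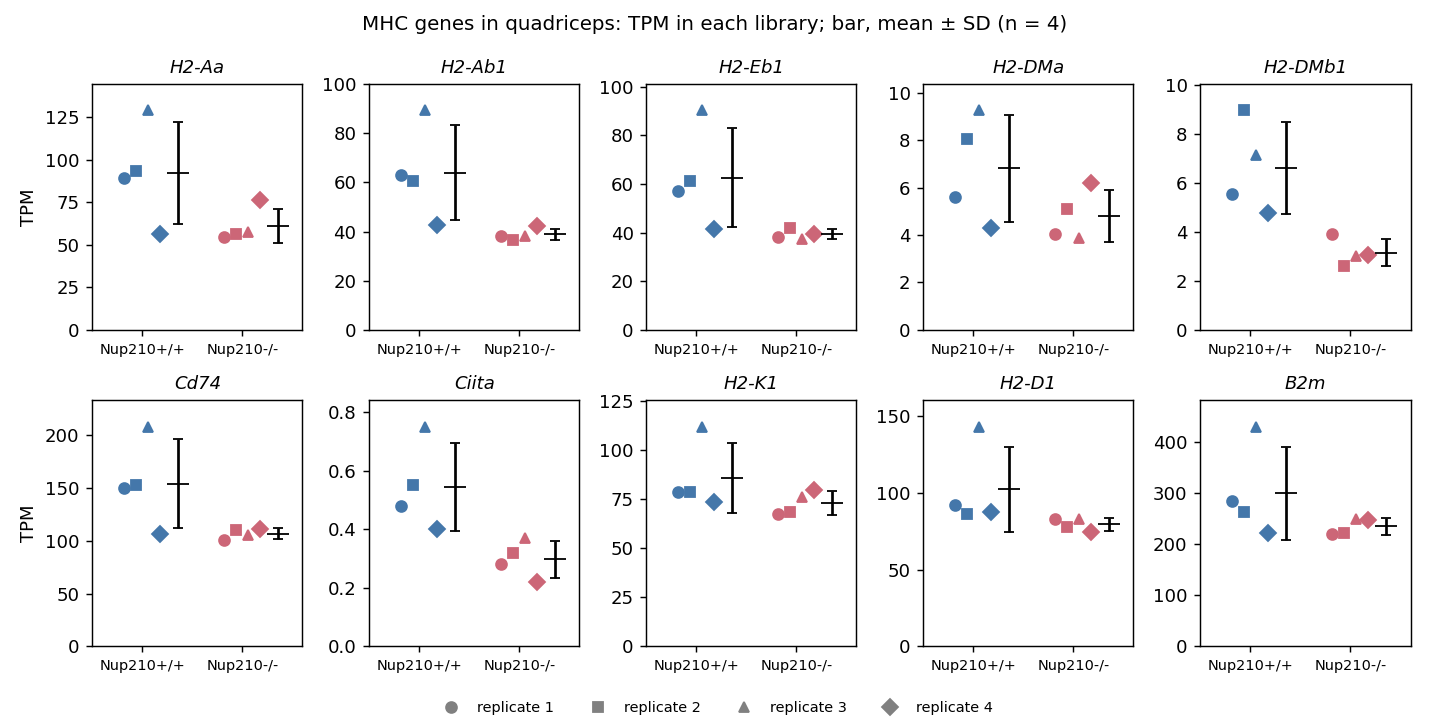
TPM of the 10 MHC genes in each quadriceps library. Points are libraries, marked by replicate number and coloured by genotype, and the horizontal and vertical bars are the mean and SD of the 4 libraries of a genotype. Nup210+/+ replicate 3 (triangle) is the highest of the 8 libraries for 9 of the 10 genes, and Nup210+/+ replicate 4 (diamond) lies near the Nup210-/- libraries for most of them.

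The class II accessory genes act on the way of the chains to the surface. Cd74 encodes the invariant chain, which blocks the peptide groove of new class II molecules, and H2-DMa and H2-DMb1 encode the chains of H2-DM, which exchanges the remaining fragment of the invariant chain for antigenic peptides. The difference with the lowest unadjusted p among the MHC genes was that of H2-DMb1, at 1.70-fold lower in Nup210-/- quadriceps, and it too missed the adjusted threshold.

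H2-DMb1 (chromosome 17, 34153072 to 34160230, plus strand) had 3.93, 2.63, 3.03 and 3.05 TPM in the Nup210-/- libraries and 5.55, 8.99, 7.15 and 4.76 TPM in the Nup210+/+ libraries. Each Nup210+/+ library, replicate 4 included, was above each Nup210-/- library, in TPM and after scaling. The means were 3.16 ± 0.549 and 6.61 ± 1.87 TPM (SD, n = 4 each). The estimate was -0.77 (SE 0.17, 95% interval -1.15 to -0.39), with an unadjusted p of 0.00122, a limma adjusted p of 0.117 and an exact permutation p of 0.0286. Of the 75-base stretches of its annotated transcripts, 15.8% also occur in those of H2-DMb2, so that reads of 75 bases from this share cannot be assigned to either gene by sequence alone. H2-DMb2, the gene of a closely related beta chain, was also lower in estimate, at 0.345 ± 0.104 against 0.923 ± 0.344 TPM (SD, n = 4 each), with an estimate of -0.46 and a limma adjusted p of 0.245.

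Cd74 (chromosome 18, 60803848 to 60812652, plus strand) had the highest TPM of the 7 class II pathway genes in both genotypes. It had 101, 110.1, 105 and 111 TPM in the Nup210-/- libraries and 149.5, 152, 208 and 106 TPM in the Nup210+/+ libraries. The Nup210-/- libraries were close together, at 106.7 ± 4.95 TPM (SD, n = 4), while the Nup210+/+ libraries spread over 153.9 ± 41.7 TPM (SD, n = 4), with replicate 4 inside the Nup210-/- range. The estimate was -0.39 (SE 0.13, 95% interval -0.69 to -0.09), with an unadjusted p of 0.0163, a limma adjusted p of 0.243 and an exact permutation p of 0.0857.

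H2-DMa (chromosome 17, 34119541 to 34139101, plus strand) had 4.04, 5.09, 3.87 and 6.20 TPM in the Nup210-/- libraries and 5.62, 8.05, 9.27 and 4.29 TPM in the Nup210+/+ libraries. The genotypes overlapped widely, and Nup210-/- replicate 4, which was high for H2-Aa, was also the highest of its group here. The estimate was -0.32 (SE 0.20, 95% interval -0.76 to 0.13), with a limma adjusted p of 0.490. The interval takes in no difference as well as a difference as large as that of H2-Ab1. An exon of Brd2 on the opposite strand overlaps the exons of H2-DMa.

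Ciita (chromosome 16, 10480059 to 10528418, plus strand), which encodes the transactivator on which class II transcription depends, had the lowest TPM of the 10 genes. It had 0.28, 0.32, 0.37 and 0.22 TPM in the Nup210-/- libraries and 0.48, 0.55, 0.75 and 0.40 TPM in the Nup210+/+ libraries. Every Nup210+/+ library was above every Nup210-/- library, and the exact permutation p was 0.0286. Its mean over the 8 libraries was 0.421 TPM, under the minimum of 0.5 TPM for the limma analysis, so it was not among the genes tested. With all genes above 0 in any library included, its limma adjusted p was 0.366. On the scale with 1 added to the value, its difference was -0.22, which understates the change of a gene at this level, and the ratio of its mean TPM was 0.546. Dexi overlaps an exon of Ciita on the opposite strand.

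Among the class I genes, H2-K1 and H2-D1 encode the classical heavy chains of C57BL/6 mice, and B2m encodes the light chain that both need to reach the surface. Their estimates were 1.08- to 1.18-fold lower in Nup210-/- quadriceps, and no unadjusted p was below 0.05.

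H2-K1 (chromosome 17, 33996017 to 34000347, minus strand) had 67.8, 68.6, 76.4 and 79.8 TPM in the Nup210-/- libraries and 78.9, 78.6, 112 and 73.6 TPM in the Nup210+/+ libraries. Apart from Nup210+/+ replicate 3 the libraries of the genotypes lay in the same range. The estimate was -0.12 (SE 0.10, 95% interval -0.35 to 0.11), with a limma adjusted p of 0.629.

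H2-D1 (chromosome 17, 35262730 to 35267499, plus strand) had 82.9, 77.8, 83.2 and 74.6 TPM in the Nup210-/- libraries and 92.4, 86.1, 143 and 87.7 TPM in the Nup210+/+ libraries. The genotypes did not overlap in TPM (exact permutation p = 0.0286) and overlapped after scaling (exact permutation p = 0.0571). The limma estimate was -0.23 (SE 0.12, 95% interval -0.51 to 0.04), with an adjusted p of 0.416. Stretches of 75 bases that also occur in transcripts of other genes, mostly H2-Q1 and Gm7030, made up 5.40% of its transcripts, and those of H2-K1 that occur elsewhere, mostly in H2-Q10 and H2-Q7, made up 3.10%.

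B2m (chromosome 2, 122147686 to 122153083, plus strand) had 219, 223, 250.1 and 248 TPM in the Nup210-/- libraries and 285, 262, 430.3 and 222 TPM in the Nup210+/+ libraries. In TPM, Nup210+/+ replicate 4 was the second lowest of the 8 libraries and replicate 3 was far above the others. The estimate was -0.21 (SE 0.14, 95% interval -0.53 to 0.11), with a limma adjusted p of 0.512.

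**Figure D2:**
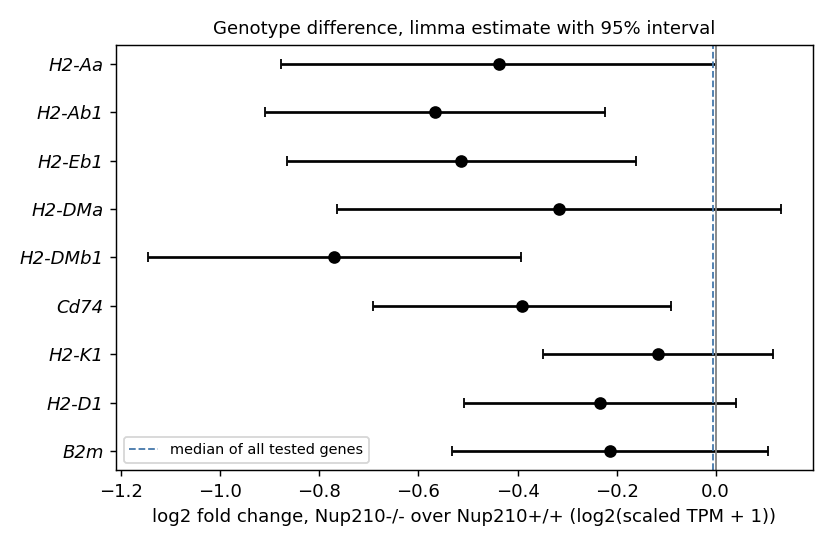
Genotype difference of the 9 tested MHC genes, as limma log2 fold change of Nup210-/- over Nup210+/+ on log2(scaled TPM + 1), with the 95% interval. All 9 estimates lie below 0 and below the dashed median of all tested genes, and the intervals of H2-Ab1, H2-Eb1, H2-DMb1 and Cd74 lie below 0 throughout.

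Of the 10 MHC genes, 9 were among the 14229 genes tested, and 0 of 9 passed a limma adjusted p of 0.05, at which 0.112% of all genes were called. All 9 estimates were lower in Nup210-/- quadriceps, as were 51.3% of all genes tested. An unadjusted p under 0.05 with a lower estimate was found for 4 of 9, H2-Ab1, H2-Eb1, H2-DMb1 and Cd74, all of the class II pathway, and for 7.18% of all genes. After scaling, 2 of the 9, H2-Eb1 and H2-DMb1, were without overlap between genotypes, where 4.60% of the tested genes did not overlap and were lower. Ciita, which was not tested, did not overlap either. In TPM as deposited, the tested MHC genes without overlap were H2-Ab1, H2-DMb1 and H2-D1, against 6.87% of the tested genes, and Ciita again did not overlap. The median log2 fold change was -0.39 for the 9 genes and -0.01 for all genes tested. The 9 genes are not independent replicates, since several are made in the same cells and share regulators.

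The spread between libraries was unequal. The SD of log2(scaled TPM + 1) was larger among the Nup210+/+ than among the Nup210-/- libraries for all 10 MHC genes, with a ratio of 1.25 for H2-DMa to 4.06 for H2-Eb1 and a median of 2.22. Over all genes tested, the SD was larger in Nup210+/+ for 62.8%, and the median ratio was 1.26. Nup210+/+ replicate 3 was the highest of the 8 libraries for 9 of the 10 MHC genes, and for 15.8% of all genes tested. For H2-DMb1 the highest was Nup210+/+ replicate 2, as for 19.1% of all genes tested. After scaling, Nup210+/+ replicate 4 fell within the range of the Nup210-/- libraries for 6 of the 10, H2-Aa, H2-Ab1, H2-DMa, Cd74, H2-K1 and B2m, where it did so for 54.3% of all genes tested. It was above all Nup210-/- libraries for the other 4. On the same scale, Nup210+/+ replicates 1 to 3 were all above every Nup210-/- library for 6 of the 10 genes, H2-Aa, H2-Ab1, H2-Eb1, H2-DMb1, Cd74 and Ciita, and for 8.9% of all genes tested. This count sets aside replicate 4, which was chosen after its values were seen. Here and below, counts out of 10 include Ciita, which is not among the genes tested that give the shares.

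Leaving out each library in turn kept all 9 estimates below 0. Without Nup210+/+ replicate 3, the class I estimates were close to 0, at -0.02 for H2-K1, -0.10 for H2-D1 and -0.06 for B2m. The class II chains were then at -0.29 for H2-Aa, -0.43 for H2-Ab1 and -0.36 for H2-Eb1, and the median of the 9 genes was -0.27. Without Nup210+/+ replicate 4, these were -0.62, -0.70 and -0.65, the median was -0.52, and 6 of the 10 genes did not overlap, beside 8.91% of all genes tested. The number with an unadjusted p under 0.05 was 4 to 6 of 9 over the 8 fits, while the share of all genes that were lower at this p was 5.58 to 9.51%, and 9.51% in the fit with 6 of 9. None of the 9 reached an adjusted p of 0.05 in any of them. The lowest limma adjusted p was 0.0704, without Nup210+/+ replicate 4, for H2-Ab1 and Cd74.

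**Figure D3:**
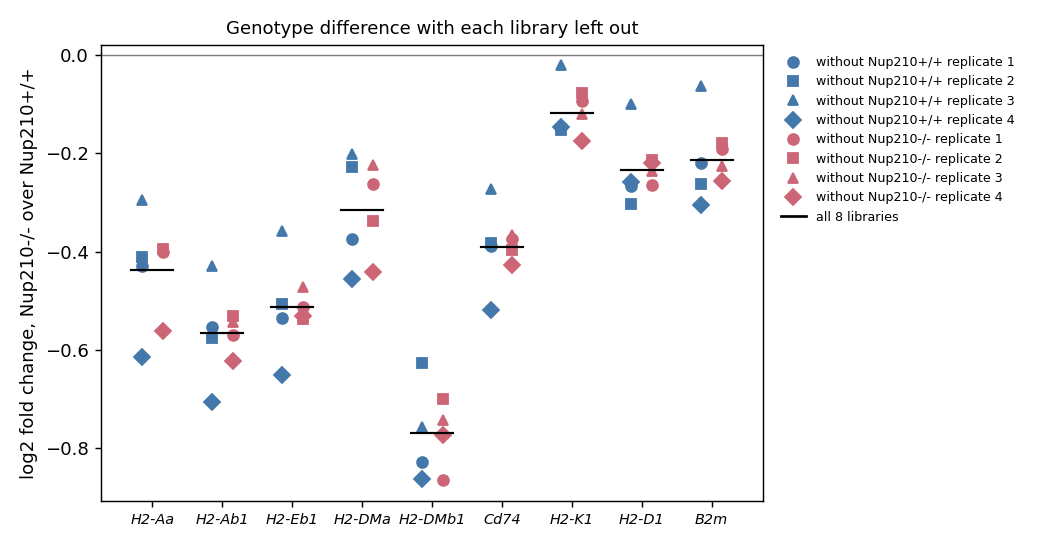
Log2 fold change of Nup210-/- over Nup210+/+ (limma, log2(scaled TPM + 1)) for the 9 tested MHC genes with each library left out in turn. Points are the fits without the library named in the legend, and bars are the fit with all 8 libraries. Leaving out Nup210+/+ replicate 3 brings the class I genes to between -0.10 and -0.02, and all points remain below 0.

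The order of the levels was alike in the genotypes. In Nup210-/- quadriceps B2m had the highest TPM, followed by Cd74, H2-D1, H2-K1, H2-Aa, H2-Eb1, H2-Ab1, H2-DMa, H2-DMb1 and Ciita. The ranges of neighbours overlapped for H2-D1 and H2-K1, H2-K1 and H2-Aa, H2-Eb1 and H2-Ab1, and H2-DMa and H2-DMb1. Within each of the 4 Nup210-/- libraries, however, H2-K1 was above H2-Aa and H2-DMa above H2-DMb1, while H2-D1 was above H2-K1 in 3 and H2-Eb1 above H2-Ab1 in 2 of them. In Nup210+/+ quadriceps H2-Aa came before H2-K1 and H2-Ab1 before H2-Eb1, and the ranges overlapped between all neighbours from Cd74 to H2-Eb1 and between H2-DMa and H2-DMb1. Within the Nup210+/+ libraries, Cd74 was above H2-D1 and H2-K1 above H2-Ab1 in all 4, H2-D1 above H2-Aa and H2-Aa above H2-K1 in 3, and H2-Ab1 above H2-Eb1 and H2-DMa above H2-DMb1 in 2. B2m was above Cd74 in all 8 libraries.

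Ratios of TPM within a library compare 2 genes without any scaling, and they were chosen after the values had been seen, so they are given with no test. The ratio of H2-Ab1 to H2-K1, a class II to a class I chain, was 0.502 to 0.562 in the Nup210-/- libraries and 0.579 to 0.800 in the Nup210+/+ libraries. It did not overlap between the genotypes, with Nup210+/+ replicate 4 again next to the Nup210-/- libraries. The ratio of H2-Aa to H2-Ab1, the chains of one molecule, was 1.80 in Nup210-/- replicate 4 and 1.32 to 1.54 in the other 7 libraries. The ratio of Cd74 to the sum of H2-Aa and H2-Ab1 lay between 0.942 and 1.18 in all libraries. The ratio of B2m to the sum of H2-K1 and H2-D1 lay between 1.38 and 1.68.

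**Figure D4:**
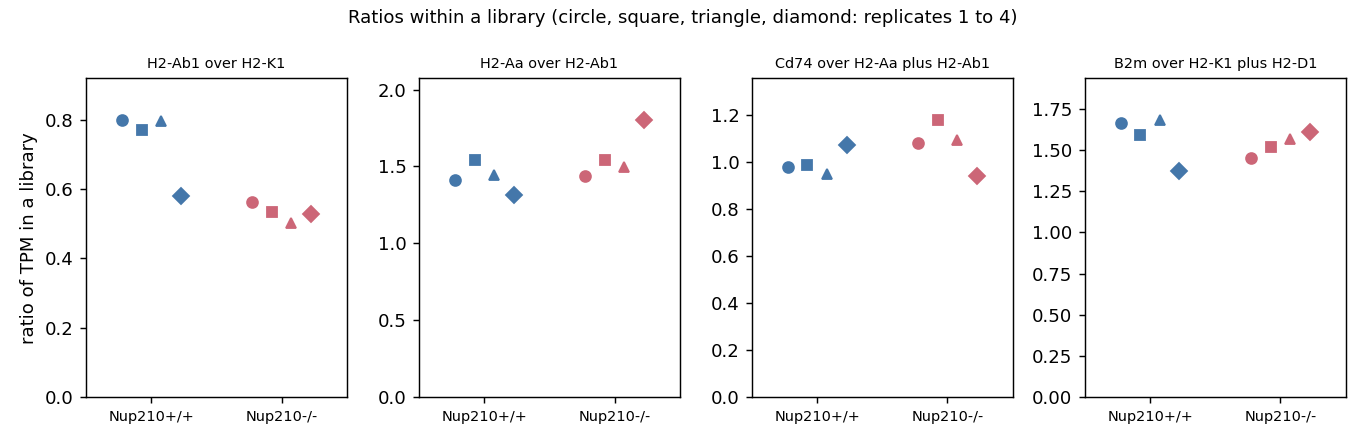
Ratios of TPM between MHC genes within each library, with circles, squares, triangles and diamonds for replicates 1 to 4 of Nup210+/+ (blue) and Nup210-/- (red). The ratio of H2-Ab1 to H2-K1 is 0.502 to 0.562 in Nup210-/- and 0.579 to 0.800 in Nup210+/+, and the ratio of H2-Aa to H2-Ab1 is highest in Nup210-/- replicate 4.

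Other genes of the same pathways were counted by lists. Of the other class II genes, H2-Ea-ps was listed at 0 in all 8 libraries, H2-Oa, H2-Ob and H2-Eb2 were below the minimum of 0.5 TPM, and H2-DMb2, described above, was the only one tested. Of the nonclassical class I genes, 13 were tested, 8 were lower and 5 higher in estimate, 0 passed the adjusted threshold, and the median log2 fold change was -0.08. H2-T23, which encodes Qa-1, was at the low end with 10.4 ± 0.983 against 16.1 ± 5.86 TPM (SD, n = 4 each) and an estimate of -0.44 (limma adjusted p = 0.346), followed by H2-T24 at -0.29. H2-Q4 at 0.33 and H2-Q6 at 0.26 were at the high end.

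The genes for loading peptides onto class I number 13, among them the TAP transporter and immunoproteasome subunits. Of these, 10 were lower and 3 higher in estimate, 0 passed, and the median was -0.12. Nup210+/+ replicate 2 was the highest library for 7 of the 13, and for 19.1% of all genes tested. Pdia3, a protein disulfide isomerase of the loading complex, had 44.0, 50.1, 45.7 and 35.5 TPM in the Nup210-/- libraries and 69.6, 112, 75.6 and 63.9 TPM in the Nup210+/+ libraries. The genotypes did not overlap, and Nup210+/+ replicate 4 was with its own group. Its estimate was -0.74 (SE 0.16), with a limma adjusted p of 0.117. Calr, the chaperone calreticulin, followed at -0.40 (limma adjusted p = 0.332). It had 104.8 to 119.2 TPM in the Nup210-/- libraries, 241 TPM in Nup210+/+ replicate 2 and 127.5 to 149.6 TPM in the other Nup210+/+ libraries. Its genotypes did not overlap either, in TPM and after scaling. Tapbp, encoding tapasin, and Erap1, an aminopeptidase that trims peptides, had the highest estimates, at 0.07 and 0.03. Pdia3 and Calr also serve the folding of many other proteins in the endoplasmic reticulum.

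For class II, 6 genes for the proteolysis of antigens and the invariant chain were tested, with 5 lower and 1 higher in estimate, 0 passed and a median of -0.18. Ctss, encoding cathepsin S, which cuts the invariant chain, had 10.3, 11.6, 11.3 and 10.6 TPM in the Nup210-/- libraries and 17.7, 17.9, 22.3 and 12.4 TPM in the Nup210+/+ libraries. As for H2-Ab1, Nup210+/+ replicate 3 was the highest and replicate 4 the lowest of its group, and here the genotypes did not overlap. The estimate was -0.53 (SE 0.11), with a limma adjusted p of 0.117. Ctsh was at -0.44, while Ctsb and Ctsl were at -0.04 and 0.06.

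Of 13 genes for transcription factors of MHC promoters, 8 were lower and 5 higher in estimate, 0 passed, and the median was -0.03. Spi1, encoding the myeloid factor PU.1, was at -0.77 (SE 0.31, limma adjusted p = 0.301), with 9.15 TPM in Nup210+/+ replicate 2 and 1.37 to 4.02 TPM in the other libraries. Nfya, a subunit of the factor that binds the Y box, was at -0.45. Rfxank and Rfx5, subunits of the factor that binds the X box, were at the opposite end, at 0.26 and 0.18. Rfxank had 3.20, 2.83, 2.67 and 2.57 TPM in the Nup210-/- libraries and 2.16, 2.32, 2.41 and 2.49 TPM in the Nup210+/+ libraries. Its genotypes did not overlap, in TPM and after scaling (limma adjusted p = 0.312). Of 11 tested genes of interferon gamma signalling, an inducer of both classes, 8 were lower and 3 higher in estimate, 0 passed, and the median was -0.06, with Socs1 at -0.39 and Ifngr1 at -0.24 at the low end and Jak2 and Ifngr2 at 0.08 and 0.07 at the high end. Nup210+/+ replicate 3 was the highest library for 8 of these 11. Of 4 tested genes of T cell costimulation, 2 were lower and 2 higher in estimate, with Cd28 at -0.39, Cd40 at -0.23, Cd274 at 0.02 and Cd86 at 0.19, and 0 passed.

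Levels of the markers of cells that could hold MHC RNA are given beside these values, and their part in the result was not tested. All 11 macrophage markers were lower in estimate in Nup210-/- quadriceps, with a median of -0.42 and 0 past the adjusted threshold. Their summed level was 101.9 to 119.1 TPM in the Nup210-/- libraries and 160.9, 144.6, 265.0 and 116.4 TPM in Nup210+/+ replicates 1 to 4. By this sum, replicate 3 was again the highest and replicate 4 within the Nup210-/- range. Marker by marker after scaling, however, 5 of the 11 were lower without overlap between genotypes, replicate 4 included, beside 4.60% of all genes tested. Lyve1 and Adgre1 were the lowest in estimate, at -0.58 and -0.56, and Mertk and Fcgr1 the highest, at -0.09 and -0.01. Of the general leukocyte markers, 7 of 7 were lower in estimate, with a median of -0.76, and Cd52 passed (estimate -0.81, SE 0.10, limma adjusted p = 0.0490). Without any one of the Nup210-/- libraries, or without Nup210+/+ replicate 1, limma called 0 genes lower, Cd52 included, with 797 to 918 lower at an unadjusted p under 0.05. Cd53 was lower still in estimate, at -1.08 (limma adjusted p = 0.409), with 43.0 TPM in Nup210+/+ replicate 2 and 3.37 to 8.41 TPM in the other libraries. Ptprc and Fcer1g had the highest estimates of the list, at -0.65 and -0.48. The summed level of the 7 was 34.8 to 40.9 TPM in the Nup210-/- libraries and 58.9, 159.5, 78.5 and 44.1 TPM in Nup210+/+ replicates 1 to 4.

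Of the dendritic cell markers, 5 of 9 were tested, 4 lower and 1 higher in estimate, from Cd209a at -0.55 and Clec9a at -0.26 to Batf3 at -0.05 and Zbtb46 at 0.12, and 0 passed. Their summed level was 6.61 to 9.36 TPM in Nup210-/- and 7.72 to 16.2 TPM in Nup210+/+ libraries. B cell markers summed to 0.28 to 0.83 TPM in Nup210-/- and 0.39 to 3.17 TPM in Nup210+/+ libraries. The highest sum was in Nup210+/+ replicate 2, and none of the markers reached the minimum for the test. T and NK cell markers summed to 0.76 to 0.85 TPM in Nup210-/- and 1.88 to 16.6 TPM in Nup210+/+ libraries, the highest in replicate 2, and the 2 tested were Nkg7 at -1.40 and Lck at -0.50, with 0 passed. Markers of granulocyte precursors summed to 381.7 TPM in Nup210+/+ replicate 2 and to at most 2.12 TPM in the others, with estimates from Ctsg at -1.83 and Elane at -1.61 to Ms4a3 at -0.94 and Cebpe at -0.87 and 0 passed. The MHC genes other than H2-DMb1 were not highest in that library. Without it, the number of MHC genes with an unadjusted p under 0.05 was 5 of 9, beside 6.74% of all genes tested that were lower at this p. The estimate of H2-DMb1 was then -0.63. Whether the granulocyte precursors bear on the MHC values was not tested. Of the 6 endothelial markers, 3 were lower and 3 higher in estimate, from Tek at -0.24 and Emcn at -0.22 to Tie1 at 0.13 and Kdr at 0.14, and 0 passed. All 8 muscle fiber markers were higher in estimate in Nup210-/-, from Mb at 0.07 and Pvalb at 0.10 to Myh1 at 0.27 and Myh4 at 0.30, with sums of 97605 to 105030 TPM against 91315 to 98107 TPM and the lowest sum in Nup210+/+ replicate 3, and none passed.

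**Figure D5:**
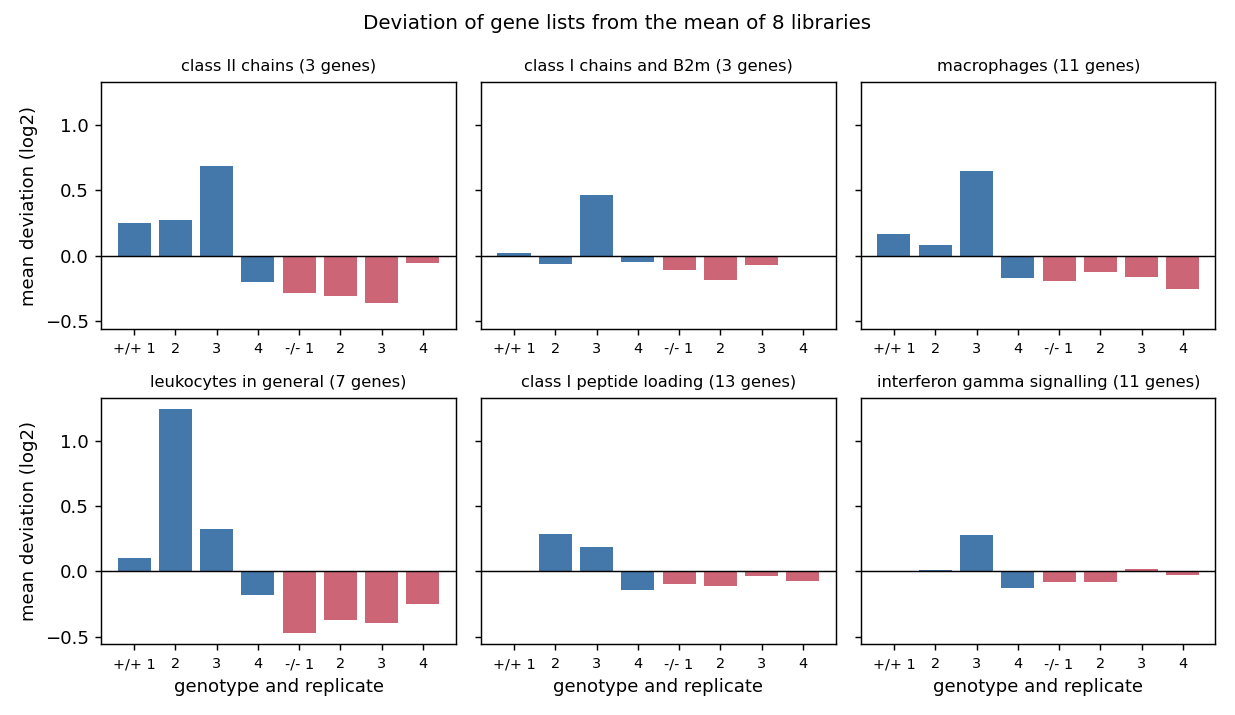
Mean deviation of the genes of 6 lists from their mean over the 8 libraries, on log2(scaled TPM + 1), for each library (blue, Nup210+/+; red, Nup210-/-; numbers are replicates). Class II chains and macrophage markers are each highest in Nup210+/+ replicate 3 and below 0 in Nup210+/+ replicate 4 and all Nup210-/- libraries, with Nup210-/- replicate 4 the highest of its genotype for the class II chains (-0.06) and the lowest for the macrophage markers (-0.25). The general leukocyte markers are highest in Nup210+/+ replicate 2.

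The tested genes with the profile most like the class II chains were sought by the root mean square (RMS) difference from the mean profile of H2-Aa, H2-Ab1 and H2-Eb1, on centred log2(scaled TPM + 1) over the 8 libraries. A difference of 0 would be an identical profile, and the class II profile itself deviated from its mean by 0.345. Outside the MHC genes these were Fam46a (RMS difference 0.0754), Ang (0.0825), Emilin2 (0.0918), Clcn5 (0.0932) and Dact1 (0.104). Cd74, which did not enter the profile, was at 0.0803 and held place 4 of the 14229 genes tested, whereas H2-DMb1 was at 0.293 and place 1775. For the mean of H2-K1 and H2-D1, whose profile deviated by 0.170, the nearest were Pid1 (0.0307), Car3 (0.0422), Ecm2 (0.0567), Igfbp3 (0.0586) and Stat2 (0.0602), and B2m was at 0.0929 and place 52. These values describe likeness over 8 libraries that share their scaling.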

How the data were processed

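Polyadenylated RNA of snap-frozen quadriceps was made into directional libraries and read from one end for 75 bases. According to the submitters' processing notes and the study's methods, the authors trimmed reads with cutadapt 2.3, aligned them to mm10 with STAR 2.7.0d and estimated expression with RSEM 1.3.1 and Ensembl 84 annotation. The values the authors deposited are TPM per gene and library, relative to transcript length and the library's total, so a gene taking more of a library lowers the others, and depth is not kept. They were not counts, so no count test was used.

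TPM were scaled by the median of ratios (factors 0.936 to 1.12), and log2(scaled TPM + 1) was compared, for the 14229 genes whose mean over the libraries reached 0.5 TPM, with limma 3.58.1 in R 4.3.3 (lmFit, eBayes with trend, genotype only), with Benjamini-Hochberg adjustment over all of them at 0.05. The script was tested on simulated data. Exact permutation tests were two-sided. Each library is from 1 mouse, per the protocol. Pairs of libraries had equal TPM in at most 201 genes, so none repeats another.

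The members and lists were chosen with earlier results of these data known. Genes of a list are named when among its 2 lowest or 2 highest estimates or past the threshold, and the 5 nearest genes are named for each profile, besides the MHC genes and Nup210. H2-Oa, H2-Ob and H2-Eb2, and genes that share sequence with an MHC gene, are named outside this rule. Alternatives were pseudocounts of 0.1 and 0.5, other minimum levels, TPM as deposited, upper-quartile scaling, no trend, library weights, the replicate number as a block, and each library left out. Promoters are from RefSeq, and gene positions, exons and transcripts from GENCODE M21 (GRCm38), not the authors' release.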

Additional observations from a re-analysis of the deposited data

Results flagged for a closer look

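In 3 of 20 groups of 4 libraries, 1 library's TPM lay apart from the other 3 by more than Dixon's 95% limit for the gap to the nearest library as a share of the group's range. For independent groups, chance gives about 1 such group in 20. These groups are not independent, since all genes come from the same libraries, so the count is not a test. H2-Aa in Nup210-/- replicate 4 had 76.0 TPM against 54.8 to 57.5 TPM in the others, a share of 0.871. H2-K1 in Nup210+/+ replicate 3 had 112 TPM against 73.6 to 78.9 TPM, a share of 0.863. H2-D1 in the same library had 143 TPM against 86.1 to 92.4 TPM, a share of 0.889.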

How the results depend on the processing

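4 of the alternatives (both minimum levels, no trend and the block) leave the fold changes as they are by construction. All 129 log2 fold changes of the MHC genes under the others were below 0, and no MHC gene passed an adjusted p of 0.05 under any alternative run, the lowest limma adjusted p being 0.0704 without Nup210+/+ replicate 4. Ciita was at -0.61 with a pseudocount of 0.1 and -0.34 with 0.5, by the construction of the scale. Over all genes, 7 were called higher and 9 lower. With a pseudocount of 0.1, 11 were higher and 11 lower. With a minimum mean of 1 TPM, 14 were higher and 13 lower. With TPM as deposited, 2 were higher and 12 lower, so the split depends on the scaling. With upper-quartile scaling 0 were higher and 7 lower. With all genes above 0 in any library, 0 were higher and 1 lower, with 1234 and 1246 at an unadjusted p under 0.05. Without the trend, 0 were higher and 0 lower in limma, with 887 and 1065 at an unadjusted p under 0.05. With library weights 43 were higher and 41 lower. Leaving out a library gave 0 to 2 higher and 0 to 8 lower. The causes were not tested.

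Libraries with the same number in both genotypes did not deviate together (r = -0.033, 0.005, 0.019 and 0.086 across genes for replicates 1 to 4). Pairs with different numbers gave r from -0.081 to 0.103. Whether the numbers mark mice handled together is unknown. With the replicate number as a block, 0 were called higher and 0 lower, with 888 and 962 at an unadjusted p under 0.05, and the lowest adjusted p of an MHC gene was 0.276, for H2-DMb1. Without depth, the counting error of low genes such as Ciita is unknown.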
